A study of Homo sapiens with 4 samples.

Results

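The APOBEC3 genes encode 7 cytidine deaminases, APOBEC3A, APOBEC3B, APOBEC3C, APOBEC3D, APOBEC3F, APOBEC3G and APOBEC3H. They were chosen by gene name on the array, which gave 7 of the 43317 genes named there, with 9 probes and 1 spot per probe. Their transcripts were measured with 1 one-colour Agilent expression array per cell line. HN4 and HN30 are established human head and neck squamous cell carcinoma (HNSCC) lines, and cisplatin is not named for these parental cells. HN4/DDP and HN30/DDP, named HN4_CR and HN30_CR in the labels, are the cisplatin-resistant lines made from them by raising the cisplatin dose step by step. The labels give these resistant cells 48 h in medium with 20 μM cisplatin, while the study's methods give the same dose as their standing medium, with no time. Neither source says whether the drug was present when RNA was taken, and acquired resistance and exposure to the drug cannot be told apart in any difference between a resistant and a parental array. All 4 lines were grown in DMEM with serum, and the labels name no altered gene. Each line has 1 array, and the sources used here do not say whether a resistant line is a clone, so a resistant array can be set against its parental array only as a difference, with no test.

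APOBEC3 enzymes remove the amino group of cytosine in single-stranded DNA and leave uracil. They belong to the innate defence against retroviruses and transposons, several of them are induced by interferons, and HIV counters some of them, APOBEC3G among them, with its Vif protein. In tumours, and often in HNSCC, APOBEC3A and APOBEC3B are linked to clustered and scattered C-to-T and C-to-G mutations. All 7 genes lie side by side on chromosome 22, and their similar sequences make it hard for a hybridisation probe to tell some of them apart.

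The probes are 60 bases long and, per the file headers, placed on hg19, where they span 138942 bases of chromosome 22. The files name a transcript for each probe but no exon, intron or UTR. The sequences that bear on how the signals can be read are printed in lower case, and capitals mark the run of 25 bases that the APOBEC3C probe and APOBEC3F probe 1 share. These probes were identical at 50 of 53 overlapping bases, so each could bind the other's transcript. In the other 35 pairs of probes the longest shared run was 10 bases. Probes were compared only with each other and not with transcripts, so a short run does not show that a probe is specific.
APOBEC3C, chr22:39414287-39414346: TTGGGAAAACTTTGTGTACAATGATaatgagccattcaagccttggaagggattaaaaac
APOBEC3F probe 1, chr22:39448588-39448647: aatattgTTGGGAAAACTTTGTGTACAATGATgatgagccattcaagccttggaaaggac
The APOBEC3B probe is shown because its transcript list in the files also holds APOBEC3A and the APOBEC3A_B hybrid. Its signal alone does not separate these transcripts.
APOBEC3B, chr22:39387538-39387597: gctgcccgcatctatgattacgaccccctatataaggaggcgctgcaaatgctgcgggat
The probes of the genes whose signal differed most between resistant and parental cells in HN30, or in both lines, follow. The APOBEC3D probe covers 284 bases of the genome, so its 60 bases cross a splice junction, and both APOBEC3H probes are given because they bind different stretches and only probe 1 was well above background on every array.
APOBEC3D, chr22:39427939-39428222: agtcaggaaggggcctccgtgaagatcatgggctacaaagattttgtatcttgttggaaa
APOBEC3G, chr22:39477481-39477540: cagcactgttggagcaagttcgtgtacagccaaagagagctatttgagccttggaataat
APOBEC3H probe 1, chr22:39497974-39498033: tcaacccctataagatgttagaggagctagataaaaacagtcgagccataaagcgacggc
APOBEC3H probe 2, chr22:39497261-39497320: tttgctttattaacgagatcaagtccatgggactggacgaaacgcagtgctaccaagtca
The APOBEC3A probe lies at chr22:39359092-39359151 and APOBEC3F probe 2, made for transcript variant 2, at chr22:39440368-39440427.

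Each level below is the log2 signal of a probe minus the 75th percentile of its array, so that 0 is the level of that percentile, and it is compared only for 1 probe between arrays. A difference is a subtraction of such levels, and a difference of 1 is a 2-fold change. The error beside a difference is the SD from the error that the scanner software gave each spot. It covers the spot and not the variation between cultures, which was not measured. The 75th percentile signals were 444 to 496 intensity units, 55.3% to 63.6% of the spots were well above background, with HN30/DDP highest, and saturated spots were absent. On each array, repeated spots of 285 to 288 probes differed by a median SD of 0.0224 to 0.0271 log2. By markers of the labelled cell type, 9 or all 10 squamous epithelial genes were well above background on each array. The list's median difference was 0.36 in HN4/DDP and -0.13 in HN30/DDP. In HN4/DDP KRT6A (3.32), KRT17 (3.29) and KRT14 (2.33) were higher by more than 2 and KRT5 (-4.05) lower, while the other 6 ran from -0.82 for TP63 to 1.84 for DSG3. In HN30/DDP KRT6A was at least 183-fold lower, and the other 9 ran from -1.93 for KRT5 to 1.34 for CDH1, with 0.22 for KRT14 and 0.19 for KRT17. The part of these keratin differences in the APOBEC3 values was not tested.

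APOBEC3A, a deaminase with 1 catalytic domain that is normally abundant in myeloid cells and in differentiating keratinocytes, was detected on a single array. Its processed intensity was 3.83 in HN4 and 102 in HN4/DDP, against 3.66 in HN30 and 3.19 in HN30/DDP. Only the HN4/DDP signal was well above background, and the other 3 values are bounds rather than levels. Against the lowest signal that counted as well above background in HN4, APOBEC3A was at least 5.59-fold higher in HN4/DDP. It was at least 6.33-fold higher in HN4/DDP than in HN30/DDP. No fold change can be given between HN30 and HN30/DDP, since neither array measured the gene. With the HN4 signal taken as read, the difference in HN4/DDP, 4.73 ± 1.45 (scanner SD), shrank to 1.45 with the normexp background correction and to 2.57 with a pseudocount of 16, and the HN4 signal lay at the background. Both settings add a constant to every intensity, 50 for normexp, which by itself shrinks the differences of dim signals. The parts of this offset and of the background correction in the normexp values were not told apart. In such RNA from bulk cultures, more cells with the transcript and more RNA per cell cannot be told apart.

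APOBEC3B, a mostly nuclear deaminase with 2 deaminase domains, differed in opposite directions in the resistant lines. Its intensity was 1115 in HN4 and 4055 in HN4/DDP, against 678 in HN30 and 499 in HN30/DDP, well above background on all 4 arrays. HN4/DDP was thus the highest array and HN30/DDP the lowest. The difference was 1.86 ± 0.20 in HN4/DDP, which is 3.62-fold higher than HN4, and -0.55 ± 0.20 in HN30/DDP, which is 1.47-fold lower than HN30. Between the resistant lines the APOBEC3B signal was 7.86-fold lower in HN30/DDP. On the HN4, HN30 and HN30/DDP arrays the separate APOBEC3A probe was not well above background, while on the HN4/DDP array both probes were.

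**Figure D1:**
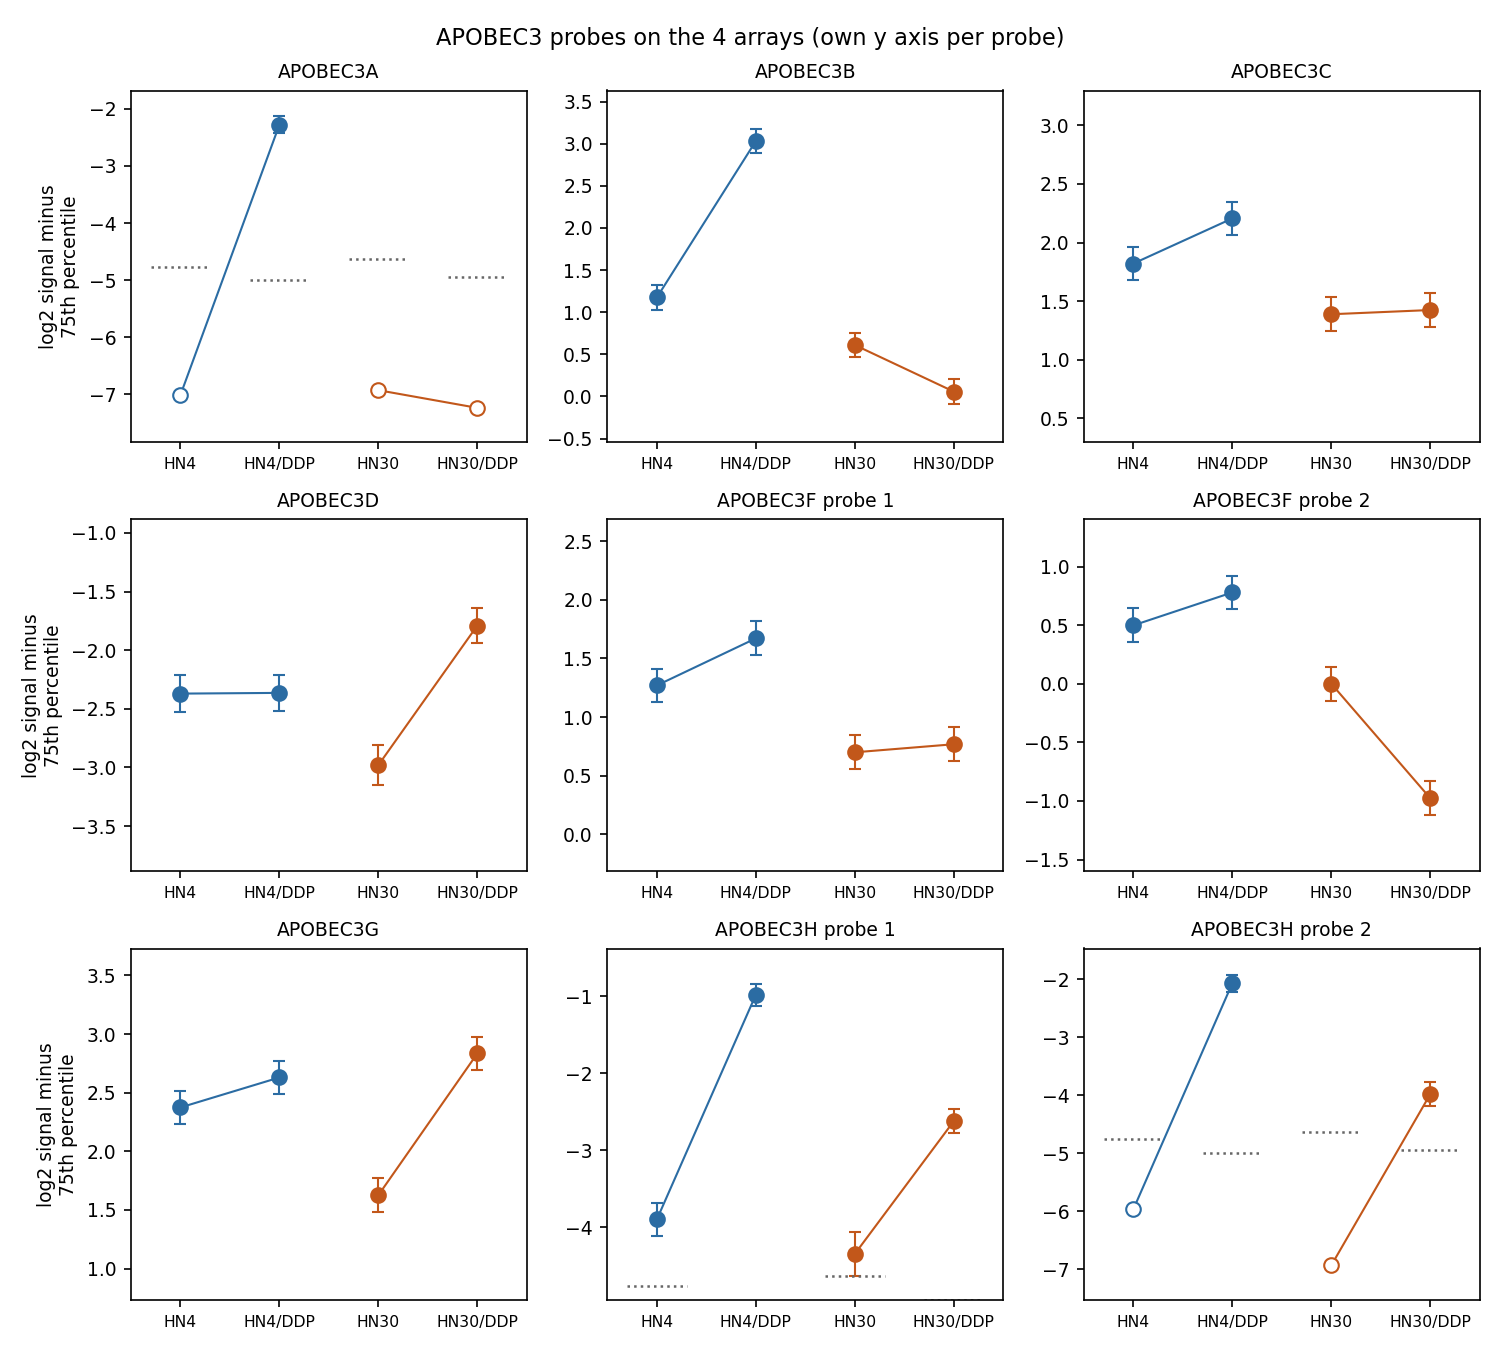
Log2 signal minus the 75th percentile of the array (y axis, own scale for each probe) of the 9 APOBEC3 probes on the 4 arrays (x axis). Lines join a parental array to its resistant array (blue HN4, orange HN30), filled points are well above background with the scanner SD as bars, open points are not, and dotted marks give the lowest level well above background on the array where the panel reaches it. APOBEC3A has 1 filled point, at HN4/DDP, and the APOBEC3B lines run up in HN4 and down in HN30.

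APOBEC3H, a deaminase with 1 domain whose common protein forms differ in stability, was the APOBEC3 gene with a higher signal by more than 1 log2 unit in both resistant lines. The intensity of probe 1 was 33.1 in HN4 and 251 in HN4/DDP, against 21.9 in HN30 and 77.8 in HN30/DDP. Both resistant arrays lay above both parental arrays. The difference was 2.91 ± 0.26 in HN4/DDP, a 7.54-fold higher signal, and 1.72 ± 0.32 in HN30/DDP, a 3.30-fold higher signal.

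APOBEC3H probe 2 read 7.89 in HN4 and 118 in HN4/DDP, against 3.63 in HN30 and 30.3 in HN30/DDP. On both parental arrays this probe was not well above background. The bounds were at least 6.46-fold higher in HN4/DDP and at least 1.56-fold higher in HN30/DDP, the same direction as probe 1. With normexp and its offset of 50 the differences of probe 1 shrank to 1.70 and 0.64, in the same direction. Its parental levels, -3.90 in HN4 and -4.35 in HN30, lay near the lowest that counted as well above background, -4.76 and -4.63.

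APOBEC3D, APOBEC3F and APOBEC3G are double-domain deaminases that are packaged into virus particles and are degraded in the presence of Vif. APOBEC3G had an intensity of 2561 in HN4 and 3071 in HN4/DDP, against 1371 in HN30 and 3420 in HN30/DDP. The parental HN30 array was the lowest. The difference was 1.21 ± 0.20 in HN30/DDP, a 2.31-fold higher signal, and 0.26 ± 0.20 in HN4/DDP, little more than its scanner SD. APOBEC3D had an intensity of 95.5 in HN4 and 96.3 in HN4/DDP, against 56.3 in HN30 and 139 in HN30/DDP. HN30/DDP was again the highest array and HN30 the lowest. Its difference was 1.19 ± 0.23 in HN30/DDP, 2.28-fold higher, and 0.01 ± 0.22 in HN4/DDP, where the direction turned under quantile normalization (-0.04) and in the deposited log2 values (-0.04). In HN30/DDP the APOBEC3D difference was 0.62 with normexp and 0.77 with scaling by the median, and the APOBEC3G difference was 0.79 with the latter.

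APOBEC3F probe 1 had an intensity of 1192 in HN4 and 1581 in HN4/DDP, against 722 in HN30 and 817 in HN30/DDP. Its differences were 0.40 ± 0.20 in HN4/DDP and 0.07 ± 0.20 in HN30/DDP. Probe 2, for transcript variant 2, read 698 in HN4 and 851 in HN4/DDP, against 444 in HN30 and 244 in HN30/DDP. The probes of APOBEC3F therefore differed in HN30/DDP, where probe 2 was 1.97-fold lower than in HN30 with a difference of -0.98 ± 0.21, and the gap between them was 1.05. In HN4/DDP the gap was 0.12, with a difference of 0.28 ± 0.20 for probe 2. APOBEC3C, a single-domain deaminase with weak antiviral activity, had an intensity of 1745 in HN4 and 2289 in HN4/DDP, against 1163 in HN30 and 1287 in HN30/DDP. Its differences, 0.38 ± 0.20 in HN4/DDP and 0.04 ± 0.20 in HN30/DDP, were close to those of APOBEC3F probe 1, with which its probe shares the run of 25 bases. The part of that shared sequence in the likeness was not tested. Scaling by the median lowers every difference of the HN30 pair by the same amount, and the values of APOBEC3C and APOBEC3F, then -0.38 and -0.35, lay near the median over all genes in both scalings (-0.36, and 0.06 in the main one). As the mean over its probes, APOBEC3F had -0.45 in HN30/DDP.

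In HN4/DDP, 2 of the 7 genes, APOBEC3A and APOBEC3H, were higher by more than 2 log2 units, beside 3.62% of the 26856 genes tested, those that either array of the pair measured above background. None was lower by that much (2.2% of all genes). At a difference of 1, APOBEC3B joined them and 3 of 7 were higher (9.31%) and 0 lower (8.65%). The transcript list of the APOBEC3B probe also holds APOBEC3A, so the counts of these genes may not be separate. All 7 differences were above 0, beside 44.1% of all genes, although that of APOBEC3D was as small as stated and turned with quantile normalization. The median of the 7 was 0.40, beside -0.08 over all genes tested. Under normexp, whose offset of 50 by itself shrinks the differences of dim signals, neither APOBEC3A nor APOBEC3H passed 2. When both arrays of the pair had to be well above background, APOBEC3H alone did.

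In HN30/DDP, 6 of the 7 genes could be compared, because APOBEC3A was well above background on neither array. None of the 6 was higher by more than 2, beside 8.37% of 28330 genes, and none lower, beside 2.75%. At a difference of 1, APOBEC3D, APOBEC3G and APOBEC3H, 3 of 6, were higher (19.8%) and none was lower (13.3%). That count depended on the setting. With normexp APOBEC3G alone stayed above 1 (1.19), beside 0.62 for APOBEC3D and 0.64 for APOBEC3H, and with scaling by the median APOBEC3H alone did (1.30), beside 0.77 for APOBEC3D and 0.79 for APOBEC3G. APOBEC3D was also below 1 with quantile normalization (0.82), in the deposited values (0.80), with a pseudocount of 16 (0.99) and with the trend with brightness taken off (0.94). 5 of 6 differences were above 0 (52.9% of all genes), but those of APOBEC3C and APOBEC3F were at the level of all genes, and APOBEC3B was below 0. The median of the 6 was 0.63, beside 0.06 over all genes. Another scaling shifted the level against which this pair is read, with a median over all genes of -0.36 for scaling by the median, 0.32 for the 75th percentile over probes detected on all arrays, -0.06 for quantile normalization and -0.06 for the deposited values. The mean over both APOBEC3H probes, 2.34 in HN30/DDP, takes in probe 2 at an HN30 signal that was not well above background, so that it is no measured pass of 2.

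**Figure D2:**
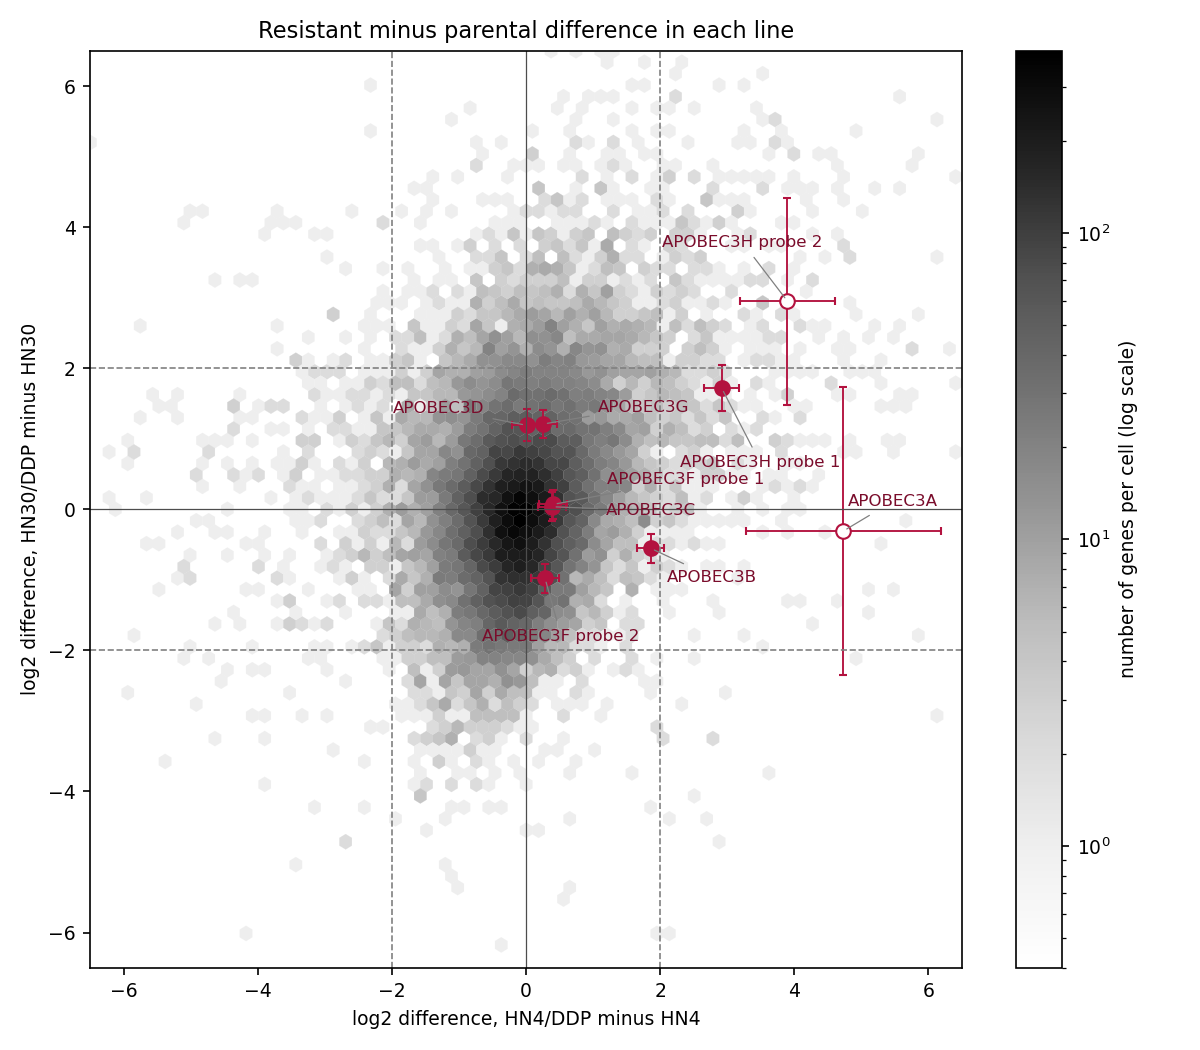
Log2 difference of HN4/DDP from HN4 (x axis) against that of HN30/DDP from HN30 (y axis). Grey cells count all 25666 genes tested in both lines, of which 32 lie outside the axes, red points are the 9 APOBEC3 probes with the scanner SD as bars (open where at least 1 array was not well above background, so that the position is no level), and dashed lines stand at differences of 2 and -2. The APOBEC3H probes lie to the upper right, APOBEC3B to the lower right, and APOBEC3D and APOBEC3G above the centre.

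The differences of HN4/DDP and HN30/DDP were then set side by side for each probe. APOBEC3B was higher in the resistant line of HN4 but lower in that of HN30, each against its parent, with a gap of -2.41 (HN30 minus HN4). APOBEC3F probe 2 was lower in HN30/DDP, with a gap of -1.26. Its difference in HN4/DDP, 0.28 ± 0.20, was little more than its scanner SD. APOBEC3H was higher in both resistant lines, with a gap of -1.19. APOBEC3D and APOBEC3G had the opposite order, with gaps of 1.18 and 0.95. For APOBEC3C and APOBEC3F probe 1 the gaps were -0.35 and -0.33, with a scanner SD of 0.29. With 1 array per condition none of these gaps could be tested.

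The parental lines already differed. All 6 APOBEC3 genes that could be compared had a lower signal in HN30 than in HN4, beside 47% of 25890 genes. APOBEC3G differed most, with -0.75 ± 0.20 or a 1.68-fold lower signal. APOBEC3C differed least, with -0.43 ± 0.20 or 1.35-fold, and APOBEC3H probe 1, at -0.45, had the widest error of them, 0.36. APOBEC3B, APOBEC3D and APOBEC3F probe 1 lay between, with -0.56, -0.61 and -0.57.

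Between the resistant lines the order was mixed. APOBEC3A and APOBEC3B, 2 of 7 genes, were lower in HN30/DDP by more than 2, beside 2.63% of 28730 genes. APOBEC3H was 3.12-fold lower by probe 1 and 3.76-fold lower by probe 2. APOBEC3G, at 0.20 ± 0.20, differed by about its scanner SD, and APOBEC3D was 1.49-fold higher. The order of arrays was thus HN4/DDP first for all genes but APOBEC3D and APOBEC3G, for which HN30/DDP was first, by about the scanner SD in APOBEC3G.

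The only contrast that could be tested sets both resistant arrays against both parental arrays, blocked by cell line, and has 1 residual degree of freedom. The arrays on each side are different lines and not replicate cultures. The residual is therefore how far the differences of the lines disagree. In limma with Benjamini-Hochberg adjustment, 0 of the 7 genes and 0 of 29520 genes (0%) had an adjusted p below 0.05, while 8.59% of all genes had an unadjusted p below 0.05. APOBEC3H was the single APOBEC3 gene below that level, with a mean difference of 2.32 ± 0.45 (SE) and an adjusted p of 0.46 in limma. It was higher in both lines. For APOBEC3A limma gave an adjusted p of 0.75, but 3 of its 4 values were not well above background, so its mean difference is not a measured one. For APOBEC3B, whose lines differed in direction, the limma values were 0.65 ± 0.70 with an adjusted p of 0.84. Over the 12 settings the adjusted p of APOBEC3H in limma ran from 0.071 to 0.67.

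**Figure D3:**
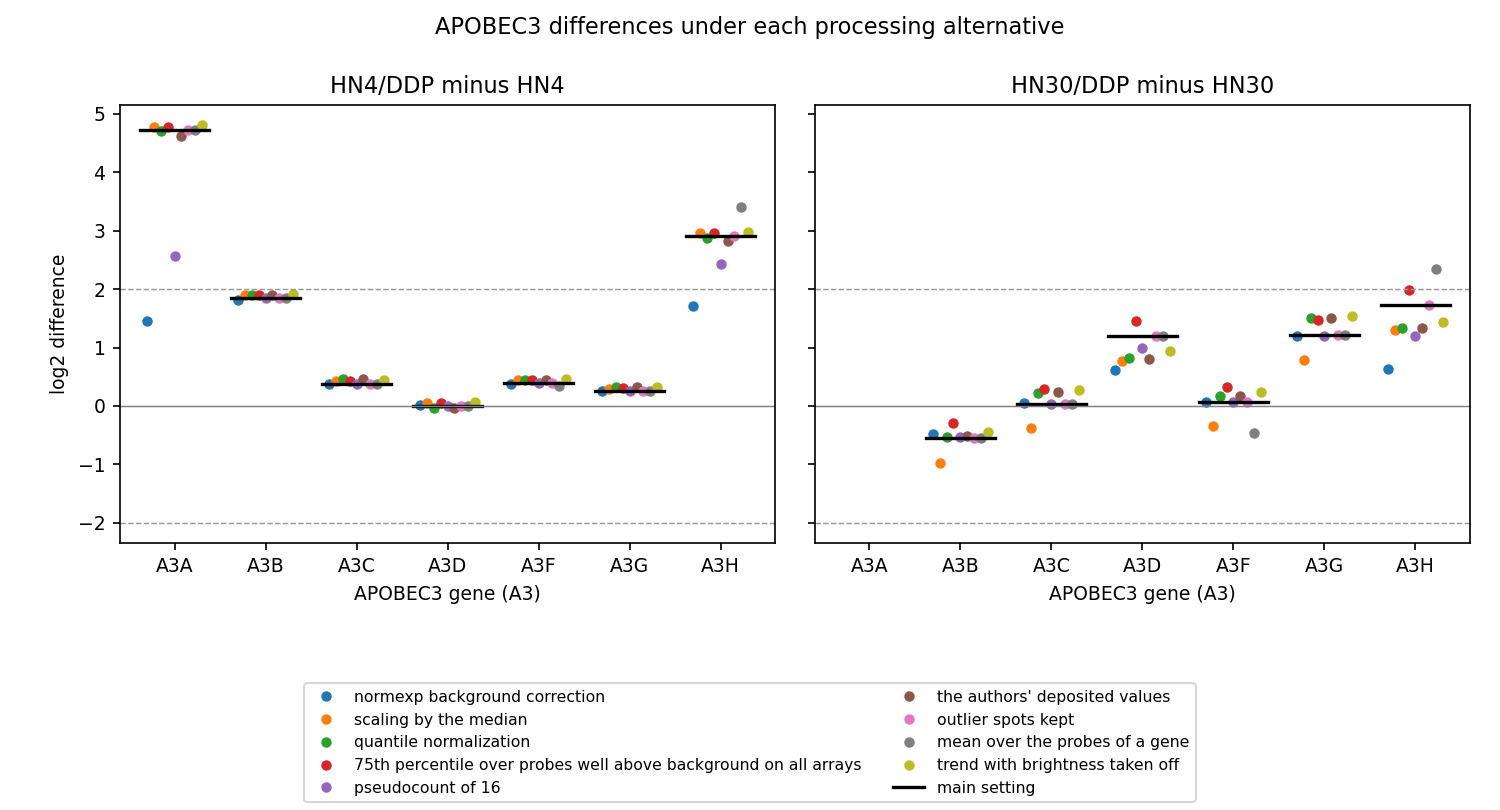
Log2 difference of each APOBEC3 gene (A3, x axis) from its parental line under the main setting (black bar) and under each alternative (coloured points), for HN4 (left) and HN30 (right), with dashed lines at 2 and -2. APOBEC3A is left out on the right because neither array measured it. APOBEC3B stays between 1.81 and 1.92 in HN4/DDP, while APOBEC3A there runs from 1.45 to 4.81 and APOBEC3H from 1.70 to 3.41.

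Genes around the pathway were read from lists, beside the percentages of all genes given above. The interferon lists hold regulators and targets of the pathway that can induce APOBEC3 genes. In HN4/DDP 2 of 12 interferon-stimulated genes were higher by more than 2, IFI6 by 2.83 and OAS1, a sensor of double-stranded RNA, by 2.13, and 5 of 12 by more than 1, with none lower by more than 1. In HN30/DDP none passed 2, with 1.55 for IFI6 and 1.03 for OAS1, and 1 of 12 was lower by more than 1. Their median was 0.67 in HN4/DDP and 0.07 in HN30/DDP. Of 12 interferon receptor and signalling genes, IRF7, a factor that drives interferon genes, was higher by 2.36 in HN4/DDP and had -0.21 in HN30/DDP, and the medians were 0.35 and -0.20. Of 9 other host restriction factors none passed 2, the largest difference being that of MX2, a factor against HIV, with 1.81 in HN4/DDP and 1.98 in HN30/DDP. Their medians were 0.30 and 0.11.

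APOBEC3B is also known to respond to NF-kB signalling and to B-MYB and the DREAM complex, which represses cell cycle genes. Of 10 NF-kB and protein kinase C genes none passed 2 in HN4/DDP, and 2 were lower by more than 2 in HN30/DDP. These were NFKB1, a subunit of NF-kB, with -2.71, and TNFAIP3, a feedback inhibitor of it, with -2.27. In HN4/DDP they had -0.81 and 1.37, and the list's medians were 0.35 and -0.22. Of 12 genes of the B-MYB, DREAM and p53-p21 list, CDKN1A, which encodes the cell cycle inhibitor p21, was higher by 3.58 in HN4/DDP and 2.50 in HN30/DDP. MYBL2, which encodes B-MYB, was lower by more than 2 in HN30/DDP (-2.92), as were E2F1 (-2.95) and RBL1 (-2.65), and none was in HN4/DDP, where the values were -0.83, -0.71 and -0.31. In HN30/DDP 9 of the 12 were lower by more than 1, and the medians were -0.40 and -1.43.

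The uracil left by APOBEC3 enzymes is removed by base excision repair. None of the 13 genes of uracil and abasic site repair passed 2 in either line. In HN30/DDP 6 of 13 were lower by more than 1, the largest difference being that of DUT, which keeps uracil out of the nucleotide pool, with -1.74, and the medians were 0.03 in HN4/DDP and -0.93 in HN30/DDP. Of the cofactors through which Vif marks APOBEC3 proteins for degradation, none of 5 passed 2, CBFB differed most with -0.47 and -1.25, and the medians were -0.39 and -1.02. Among the other deaminases, APOBEC1, APOBEC2 and APOBEC4 were well above background on none of the 4 arrays. In the 3 adenosine deaminases that could be compared, ADARB2 was at least 3.94-fold lower in HN4/DDP and had a difference of 1.95 in HN30/DDP, and the medians were -0.10 and 1.70.

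APOBEC3A is known to be induced as keratinocytes differentiate. Of 8 squamous differentiation genes 6 could be compared. GRHL3, a factor of the epidermal barrier, was higher by 5.49 in HN4/DDP and had 1.40 in HN30/DDP, and ZNF750, a differentiation factor, was higher by 2.95 and 3.46. The medians were 1.00 and 1.40. The neighbours on chromosome 22, of which 9 of 10 are on the array and 8 could be compared, had medians of -0.02 and 0.46. CBX7, a Polycomb protein gene just beyond the cluster, was the one past 2, with 2.01 in HN30/DDP and 0.61 in HN4/DDP, and APOBEC3B-AS1 was well above background on no array.

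**Figure D4:**
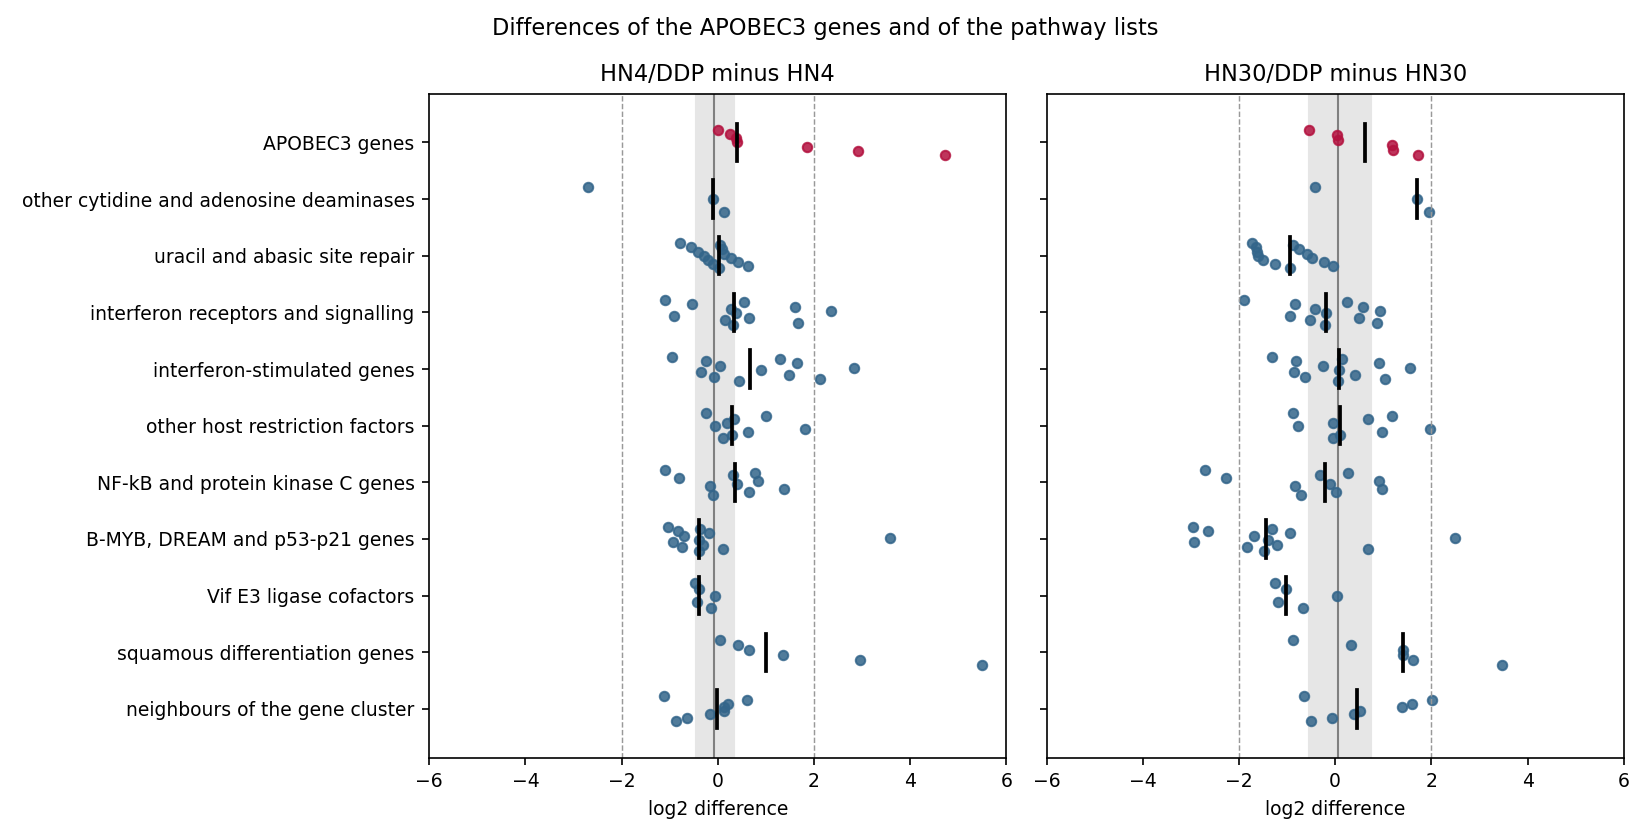
Log2 difference of single genes (points, x axis) in the APOBEC3 family and in each pathway list (rows) for HN4/DDP (left) and HN30/DDP (right), for genes that either array of the pair measured above background. Black marks are medians, the grey line and band are the median and the middle of all genes between the lower and upper quartile, and dashed lines stand at 2 and -2. The medians of B-MYB, DREAM and p53-p21 genes, -0.40 and -1.43, lie below the line in both panels, and those of squamous differentiation genes, 1.00 and 1.40, above it.

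Immune cells express several APOBEC3 genes, so their markers were read on the same arrays. All 5 myeloid markers on the array were well above background in every line, with a summed level, relative to the 75th percentile, of 8.98 in HN4 and 14.0 in HN4/DDP, against 5.56 in HN30 and 41.5 in HN30/DDP. The list did not differ as one in HN30/DDP, where CD14 (3.49) and ITGAM (2.06) were higher, CSF1R (-0.11), AIF1 (-0.55) and FCER1G (-0.23) were lower, and the median was -0.11. In HN4/DDP, where APOBEC3A was measured, CSF1R had 1.66, ITGAM 1.53, CD14 0.56, AIF1 0.02 and FCER1G -0.29, with a median of 0.56. The part of these genes in the APOBEC3 values was not tested. The 6 T cell markers summed to 0.477 to 0.527, with 4 or 5 of them well above background and CD3E, CD3G or CD2 not. Among B cell markers CD79A was well above background on all 4 arrays and MS4A1 on none, while CD79B was so in HN30/DDP alone. Of 6 fibroblast markers, COL1A1 and PDGFRB were well above background on every array and COL1A2, COL3A1, DCN and LUM on none. Their sum was higher in both resistant lines, 1.03 in HN4/DDP against 0.394 in HN4 and 0.771 in HN30/DDP against 0.223 in HN30. COL1A1, a collagen chain, had differences of 1.73 in HN4/DDP and 2.43 in HN30/DDP, beside -0.01 and 0.63 for PDGFRB. Of 4 endothelial markers 2 or 3 were well above background and KDR on none, with a sum of 0.317 in HN4/DDP against 0.266 in its parent and of 0.285 in HN30/DDP against 0.224. VWF was at least 5.37-fold higher in HN4/DDP and had a difference of 1.49 in HN30/DDP, PECAM1 was at least 2.05-fold lower in HN4/DDP and at least 1.64-fold higher in HN30/DDP, and CDH5 had -0.62 and -0.59. COL1A1, VWF, CD14 and ITGAM were thus higher in both resistant lines, as APOBEC3H was. PDGFRB, PECAM1, CDH5, CSF1R, AIF1 and FCER1G, from the same lists, were not. The part of any of these genes in the APOBEC3H values was not tested.

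The pattern of APOBEC3H, the APOBEC3 gene with the widest range among those measured on at least 3 arrays, was set against the 22146 genes measured above background on all 4 arrays, each centred on its own mean. The 5 nearest by root mean square distance over the 4 arrays were GGTLC1 (0.124 log2), IFI6 (0.141), GGTLC2 (0.159), KLK6 (0.165) and ZNF425 (0.179). IFI6, an interferon-stimulated gene, had differences of 2.83 and 1.55, and KLK6, an epithelial serine protease gene, 3.11 and 1.87. GGTLC1 and GGTLC2 are close relatives, so their probes may share signal.

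Of the 7 genes, the RefSeq promoter table (GRCh38.p14) gave a promoter for APOBEC3H at chr22:39096994-39097293 on the + strand. It was searched on both strands for 3 motifs, and the stretch around the match that interferon-responsive factors are known for is shown, with the motif in capitals.
APOBEC3H, chr22:39097260-39097289: gagagctgccaAAAGTGAAActtagtgcct
The letters AAANNGAAA, the core of interferon response elements, matched once, 28 bases past the annotated start, and at least 1 such match was present in 10.5% of 35116 promoters of that length. The NF-kB core motif (3 G, 5 of any base and 2 C) had 4 matches over both strands, some of them overlapping, and 58.7% of promoters had at least 1. TTTCCCGC, an E2F motif, had no match in this window and had one in 1.63% of promoters. A match describes these letters only.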

How the data were processed

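Per the labels and methods, 1 Agilent human expression array (SurePrint G3, Cy3) was hybridised per line, and a single slide and scan held all 4. The authors deposited scanner output in which Agilent Feature Extraction 10.7.1.1 had subtracted background and detrended each processed intensity, with no normalization between arrays. They also deposited log2 values with equal quantiles on every array, used here as an alternative; their remaining steps are not given in the sources used here, and their differences correlated with those computed here at r = 0.998 in HN4 (30527 probes) and 0.951 in HN30 (30137 probes).

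Here log2 of the processed intensity was taken, 140 to 204 outlier-marked spots per array were dropped, repeated spots were averaged by probe, and the 75th percentile over the 60901 non-control spots was subtracted. A gene with several probes (10967 of 43317) took the brightest of them by mean over the arrays; APOBEC3F and APOBEC3H are also given by probe. A probe counted as well above background if most of its spots were so marked. The lowest such level (-4.76 in HN4, -4.99 in HN4/DDP, -4.63 in HN30, -4.94 in HN30/DDP) gave the bound for "at least" fold changes. The threshold was a difference of 2, after the study's own log fold change, with 1 as an alternative. Only the contrast over both lines, with 1 culture of each, could be tested, with limma 3.58.1 (R 4.3.3; eBayes with trend, line as block). Other steps used Python 3.11.15, numpy 2.4.6, pandas 2.3.3, statsmodels 0.14.6 and matplotlib 3.10.9, and the procedures were tested on simulated data. The number of arrays limits the precision, and p-values measure only the spread between these arrays.

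The genes and lists were chosen with earlier results of these data known. Named are all APOBEC3 probes, the genes of the pathway lists past 2 in either line, the gene with the largest difference per pathway list among those measured on both arrays of a pair, and the 5 genes nearest to APOBEC3H. Other genes were named after their values were seen (cell type markers, and list genes not measured). Some listed genes are not reported here. Gene names are the array's, and all 7 APOBEC3 genes matched RefSeq accessions. Of the probe sequences, those of APOBEC3A and APOBEC3F probe 2 are not printed.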

Additional observations from a re-analysis of the deposited data

Results flagged for a closer look

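The APOBEC3B probe, whose transcript list also holds APOBEC3A, differed in opposite directions in the lines. The difference was 1.86 in HN4/DDP and -0.55 in HN30/DDP, a gap of -2.41 with a scanner SD of 0.29. With 1 array per condition this difference between the lines was not tested. APOBEC3F probe 2 (A_33_P3262181, transcript variant 2) had -0.98 ± 0.21 in HN30/DDP and 0.28 ± 0.20 in HN4/DDP, the latter little more than its scanner SD. The gap was -1.26, while probe 1 of the gene had 0.40 in HN4/DDP and 0.07 in HN30/DDP. That gap was not tested either.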

How the results depend on the processing

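The number of APOBEC3 genes higher by more than 2 in HN4/DDP was 2. It became 0 with normexp, whose offset of 50 by itself shrinks the differences of dim signals. When both arrays had to be well above background it became 1, APOBEC3H. In HN30/DDP the number was 0, and it became 1, APOBEC3H, as the mean over probes, which takes in a probe not well above background in HN30, and 3 at a difference of 1. The other 44 of 48 alternative counts stayed within 1.5 times the main count. Of 126 alternative differences 31 moved by more than the scanner SD and 0 of the called ones turned sign. The smallest differences did turn: APOBEC3D in HN4/DDP ran from -0.04 to 0.08, and in HN30/DDP APOBEC3C from -0.38 to 0.30 and APOBEC3F from -0.45 to 0.33. Scaling by the median, which shifted all genes alike, gave the low end of APOBEC3C. The low end of APOBEC3F was the mean over its probes, and scaling by the median gave it -0.35. In HN30/DDP the ranges were -0.97 to -0.29 for APOBEC3B, 0.62 to 1.45 for APOBEC3D, 0.79 to 1.53 for APOBEC3G and 0.64 to 2.34 for APOBEC3H. Removing the trend with brightness was an alternative chosen after seeing the data. In limma no APOBEC3 gene was called in any of the 11 alternatives, but over all genes scaling by the median called 296 of 29520, against 0 in the main setting and in every other one; the cause was not tested. The limma contrast pairs each resistant array with its parent through the cell line. By replicate number, no paired analysis was possible because each condition has 1 array, and fewer than 2 replicate numbers are common to the groups. Leaving out an array leaves a line without its pair and no residual degree of freedom, so no such value is given. Signals near background limit APOBEC3A, APOBEC3H probe 2 and, on the parental arrays, APOBEC3H probe 1.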
